A study of Mus musculus with 12 samples.

Results

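Leukemic bone marrow cells with high surface B220 were compared with those with low surface B220, across all genes, in mice with an inducible MLL-ENL leukemia. The comparison uses 6 of the study's 12 libraries, 3 sorted for HIGH and 3 sorted for LOW B220. The table holds 24028 genes, of which 12564 had enough counts to be tested. All 6 libraries came from marrow of C57BL/6 mice that carry a doxycycline-inducible MLL-ENL knock-in (iMLL-ENL) and received doxycycline until acute leukemia had developed. Both groups therefore share the genotype, the strain, the tissue and the drug, and differ in the sort. The study also holds unsorted leukemic marrow (iMLL-ENL total, 3 libraries) and sorted LSK cells, the lineage-negative, Sca-1-positive, c-Kit-positive stem and progenitor cells, from control mice (wt LSK, 3 libraries). The labels give 3 animals per genotype without naming the mouse behind a library, they give no gate for the B220 sort, and marrow without leukemia sorted for B220 was not analysed here.

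B220 is a form of CD45, the surface phosphatase encoded by Ptprc, that keeps exons which most blood cells splice out. It marks B cells from their early stages on and is also carried by plasmacytoid dendritic cells. MLL-ENL joins the amino-terminal part of the histone methyltransferase MLL (Kmt2a) to ENL (Mllt1), a component of complexes that promote transcription elongation, and keeps genes such as Hoxa9 and Meis1 active. Leukemias with this kind of fusion can carry features of both the lymphoid and the myeloid lineage.

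The HIGH libraries held 10921521, 20069503 and 19775319 counts and the LOW libraries 15271729, 13441696 and 16626820. Levels are given as CPM (counts per 1000000 counts of the library total), in the order of the replicate numbers 1, 2 and 3. Each number names 1 HIGH and 1 LOW library, and the fit carries the number as a pairing term. Ptprc (RNA of all CD45 forms together) was at 534, 599.8 and 553 CPM in HIGH and 610.3, 241 and 431 CPM in LOW. The ranges overlapped and Ptprc was not called (log2 change 0.54 ± 0.27 (SE), adjusted p = 0.472). A gene count cannot tell the B220 form from the others, so it does not check the sort. Kmt2a (307 to 547 CPM in B220 HIGH and 219 to 510.2 CPM in B220 LOW) and Mllt1 (15.0 to 29.9 CPM in B220 HIGH and 18.7 to 27.3 CPM in B220 LOW) were not called either (adjusted p = 0.645 and 0.988), and gene counts do not tell the fusion from the native genes. HIGH library 2 stood apart from the other HIGH libraries in MHC class II and mature neutrophil genes, and HIGH libraries 1 and 3 stood apart from it in mast cell genes. Those values are given beside the results they touch.

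At an adjusted p under 0.05, 73 genes were higher in B220 HIGH (0.581% of the genes tested) and 6 were lower (0.0478%), together 79 genes or 0.629%. The log2 changes of the 73 ran from 0.93 to 8.38 with a median of 3.19. For 11 of the 73 the LOW libraries together held 30 or fewer counts, so the size of those changes rests on few counts. In the annotation 27 of the 73 overlap another gene, and unstranded counts cannot tell such genes apart. Neither was counted over all genes tested. All 3 pairs moved the same way for each of the 79 genes. They were chosen by a test on these pairs, which by itself favors this. The share over all genes tested was not counted. The groups did not overlap for 56 of the 73 genes and for 3 of the 6. Over all genes tested, every HIGH library lay above every LOW library for 779 genes (6.2%) and below for 907 (7.22%), so most separated genes were not called. HIGH library 3 had the highest level of the HIGH libraries for 47 of the 73 genes, against 17 for library 1 and 9 for library 2. The top library was not counted over all genes tested, so this may not be particular to the 73. The calls rest on the pairing. Without the replicate block 0 genes passed edgeR's test (880 had an unadjusted p under 0.05, and the smallest adjusted p was 0.0649), while the 79 genes kept their direction. Without the libraries numbered 3, 10 genes passed, 9 of them among the 79: Ccl2, Ccl6, Il1rn, Mmp12, Gpnmb, Cpa3, Csta3, Egr1 and Bcl11a. The other was C3ar1, the receptor of complement fragment C3a (adjusted p = 0.0206, and 0.0674 with all libraries).

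**Figure D1:**
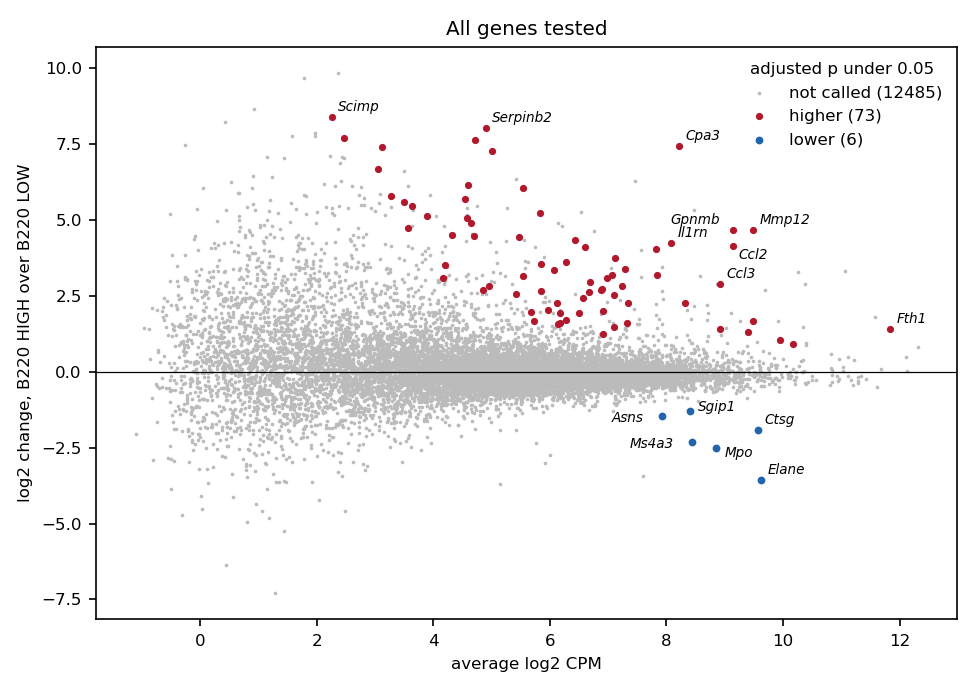
Each point is 1 of the 12564 genes tested, with its average level (log2 CPM) on the horizontal axis and its log2 change, B220 HIGH over B220 LOW, on the vertical axis. The 73 genes called higher are red and the 6 called lower are blue, and Elane, Mpo, Ctsg and Ms4a3 lie lowest among the blue points.

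Elane, Mpo, Ctsg and Ms4a3, genes of the neutrophil primary granule and of promyelocytes, were lower in B220 HIGH. The granule holds the proteases and the peroxidase that promyelocytes make in bulk and that later neutrophils carry. Elane (neutrophil elastase, chr10:79886312-79888216, GRCm38) was at 27.9, 351 and 82.7 CPM in HIGH and 444, 2364 and 1389 CPM in LOW. Every HIGH library lay below every LOW library, and the change was the strongest decrease called (log2 change -3.56 ± 0.28 (SE), adjusted p = 0.00235). Mpo (myeloperoxidase, chr11:87793784-87804412) was at 15.4, 383 and 59.0 CPM in HIGH and 105, 1756 and 400.1 CPM in LOW. Its HIGH library 2 lay above LOW library 1, so the groups overlapped, yet within each number HIGH was the lower (log2 change -2.53 ± 0.18 (SE), adjusted p = 0.000701). Ctsg (cathepsin G, another serine protease of the granule) was at 393, 286 and 245 CPM in HIGH and 809, 1648 and 1193 CPM in LOW, without overlap (log2 change -1.91 ± 0.28 (SE), adjusted p = 0.0442). Ms4a3, a membrane protein of granulocyte and monocyte progenitors, was at 12.5, 213 and 155 CPM in HIGH and 96.2, 822 and 734 CPM in LOW (log2 change -2.32 ± 0.22 (SE), adjusted p = 0.00283). Number 1 was the lowest for Elane, Mpo and Ms4a3 in both sorts, so the level differed between numbers as well as between sorts.

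Of the 12 primary granule and promyelocyte genes, 4 were lower, 0 were higher, and the median log2 change was -0.72 against -0.02 over all genes tested. Prtn3, the proteinase that neighbors Elane, had the same pattern (6.78, 119 and 21.9 CPM in HIGH and 146, 498 and 359 CPM in LOW) but missed the threshold (log2 change -3.45 ± 0.52 (SE), adjusted p = 0.0779). The other members did not pass: Clec12a had a log2 change of -0.82, Igsf6 of -0.62, Gfi1 of -0.33, Srgn of 0.50 and Cebpe of 0.89. The summed level of the list was 3397, 4914 and 4464 CPM in HIGH and 3654, 10996 and 7744 CPM in LOW, and LOW library 1 lay below HIGH library 2 in that sum. In the unsorted marrow Elane was at 993, 4787 and 1698 CPM and Mpo at 3680.3, 9811 and 4620.4 CPM. Each unsorted library had more Mpo than any sorted one, a difference in which sorting and sequencing table cannot be told apart. Without number 3 none of the 4 passed (adjusted p from 0.0607 to 0.465), and with no filter on low counts Ctsg did not (0.0641).

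The promoters of Elane and Mpo are shown because each holds the 8 letters GAGGAAGT, the core of the PU.1 motif. PU.1, encoded by Spi1, is a transcription factor of myeloid cells known to act on such granule genes. The sequences are the 250 bases before the RefSeq start site (GRCm38.p6, plus strand, chr10:79886062-79886311 and chr11:87793534-87793783), with the motif in capitals, 85 bases before the start of Elane and 224 before that of Mpo.
Elane: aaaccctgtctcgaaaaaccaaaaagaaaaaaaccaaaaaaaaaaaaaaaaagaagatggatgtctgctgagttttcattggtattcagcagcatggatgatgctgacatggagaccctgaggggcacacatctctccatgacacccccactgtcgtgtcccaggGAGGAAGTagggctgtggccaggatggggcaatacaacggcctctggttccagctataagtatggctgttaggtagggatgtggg
Mpo: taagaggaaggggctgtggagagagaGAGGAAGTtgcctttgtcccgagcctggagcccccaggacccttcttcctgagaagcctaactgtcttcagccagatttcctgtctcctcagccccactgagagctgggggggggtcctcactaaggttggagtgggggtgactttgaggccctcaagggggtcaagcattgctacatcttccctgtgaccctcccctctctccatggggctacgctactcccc
On either strand, 267 of the 9981 tested genes with a listed promoter hold these letters (2.68%). They stood in 2 of the 6 promoters of genes lower in HIGH (33.3%) and in 2 of 53 of those higher (3.77%), Mmp12 and Apobr. Spi1 itself was at 48.4, 101 and 70.4 CPM in HIGH and 58.2, 79.6 and 58.6 CPM in LOW and was not called (log2 change 0.16 ± 0.25 (SE), adjusted p = 0.851).

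Asns, which makes asparagine, was the called member of the amino acid synthesis list. It was at 225, 135 and 64.4 CPM in HIGH and 413, 354 and 295 CPM in LOW, without overlap (log2 change -1.44 ± 0.24 (SE), adjusted p = 0.0447). The list holds targets of ATF4, the transcription factor of amino acid shortage and endoplasmic reticulum stress. Of its 17 members 1 was lower and 0 were higher, 15 had a negative log2 change, and the median was -0.74, the lowest of the 30 lists. Among those that did not pass, Shmt2 had a log2 change of -0.97 ± 0.22 (adjusted p = 0.124), Slc7a5 of -0.92 ± 0.25 (0.183), Mthfd2 of -0.98 ± 0.31 (0.279), Psph of -0.999 ± 0.305 (0.238) and Atf4 of -0.53 ± 0.20 (0.331). The cystine carrier Slc7a11 went the other way without a call (129, 207 and 482 CPM in HIGH and 84.5, 107 and 55.3 CPM in LOW). All 6 sorted libraries had a higher summed level of this list (1797 to 4023 CPM) than the unsorted leukemic marrow (862 to 983 CPM). The unsorted libraries stand in the other table and were not sorted, so sorting and sequencing table cannot be told apart in that difference. With RLE size factors Asns had an adjusted p of 0.0588, and without number 3 of 0.441.

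The Asns promoter (chr6:7693210-7693459, printed on the minus strand, the strand of the gene) is shown for the letters TGATGNAA, the combined C/EBP and ATF motif through which ATF4 is known to act. They end 16 bases before the start.
Asns: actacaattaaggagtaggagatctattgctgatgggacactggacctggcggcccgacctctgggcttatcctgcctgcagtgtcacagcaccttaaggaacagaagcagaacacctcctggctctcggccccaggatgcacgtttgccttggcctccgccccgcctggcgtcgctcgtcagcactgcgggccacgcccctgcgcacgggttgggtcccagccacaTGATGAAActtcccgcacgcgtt
The motif stood in 1 of the 6 promoters of lower genes, in 0 of the 53 of higher genes and in 214 of all 9981 (2.14%). Sgip1, an endocytic adaptor, was the remaining gene lower in HIGH, at 103, 304 and 138 CPM against 183, 726 and 540.3 CPM (log2 change -1.31 ± 0.22 (SE), adjusted p = 0.0442). It overlaps Gm12709 and its groups overlapped, with LOW library 1 below HIGH library 2. With RLE size factors its adjusted p was 0.0578.

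Ccl2, Ccl3, Ccl4, Ccl6, Ccl7, Cxcl2 and Cxcl3, genes of chemokines, were higher in B220 HIGH. These small secreted proteins attract monocytes (Ccl2 and Ccl7), macrophages and T cells (Ccl3 and Ccl4) or neutrophils (Cxcl2 and Cxcl3). Ccl2 (monocyte chemoattractant, chr11:82035577-82037452) was at 188, 495 and 2306 CPM in HIGH and 17.0, 29.4 and 87.3 CPM in LOW. The groups did not overlap, and HIGH was 17.6-fold above LOW (log2 change 4.14 ± 0.26 (SE), adjusted p = 0.000392). Ccl7, its neighbor on chromosome 11 (chr11:82045712-82047525), was at 71.0, 201 and 937 CPM in HIGH and 9.89, 10.2 and 33.3 CPM in LOW, again without overlap (log2 change 4.06 ± 0.41 (SE), adjusted p = 0.0136). Number 3 had the highest level of both genes in either sort. Ccl6 (chr11:83587886-83593087), a chemokine of myeloid cells, was at 104, 206 and 419 CPM in HIGH and 9.43, 14.8 and 29.8 CPM in LOW (log2 change 3.74 ± 0.21 (SE), adjusted p = 0.000392). Ccl3 was at 172, 866 and 1422 CPM in HIGH and 48.8, 74.5 and 161 CPM in LOW (log2 change 2.89 ± 0.35 (SE), adjusted p = 0.0281). Ccl4 was at 23.1, 172 and 494 CPM in HIGH and 4.65, 19.3 and 34.2 CPM in LOW (log2 change 3.19 ± 0.31 (SE), adjusted p = 0.00362). Ccl3 and Ccl4 overlap in the annotation, so reads from one could be counted for the other. HIGH library 1 had less Ccl4 than LOW library 3, and the groups of Ccl3 and Ccl6 did not overlap.

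Among CXC chemokines, Cxcl3 (chr5:90786101-90788093) was at 24.2, 60.6 and 96.4 CPM in HIGH and 0.262, 0 and 1.08 CPM in LOW (log2 change 7.29 ± 0.77 (SE), adjusted p = 0.00493). Cxcl2 (chr5:90903899-90905938) was at 8.61, 161 and 233 CPM in HIGH and 1.44, 5.73 and 25.7 CPM in LOW (log2 change 3.63 ± 0.44 (SE), adjusted p = 0.0107). Cxcl3 was nearly silent in every LOW library, whereas Cxcl2 in HIGH library 1 lay below LOW library 3. Il1rn, the secreted antagonist of the interleukin 1 receptor (chr2:24336860-24351491), followed the same order of libraries at 79.7, 429.8 and 943 CPM in HIGH and 7.14, 18.2 and 41.3 CPM in LOW (log2 change 4.25 ± 0.26 (SE), adjusted p = 0.000392). Ccl2, Ccl6 and Il1rn passed without number 3 (adjusted p = 0.0274, 0.0364 and 0.0364), while Ccl3, Ccl4, Ccl7, Cxcl2 and Cxcl3 did not. Ccl7 was also lost without number 2 (adjusted p = 0.349), and with no filter on low counts Ccl3 (0.116) and Ccl7 (0.0595) did not pass.

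Taken by family, 19 CC chemokine genes are in the table and 9 were tested, of which 5 were higher and 0 were lower. Of 13 CXC chemokine genes 5 were tested, 2 were higher and 0 were lower. The CC genes tested but not called were Ccl9 (1.46 ± 0.33), Ccl12 (7.88 ± 1.48), Ccl17 (4.38 ± 2.13) and Ccl25 (-0.23 ± 0.53), given as log2 changes with their SE. Ccl9, next to Ccl6, was abundant in both sorts, at 1115, 1240.3 and 3231 CPM in HIGH and 452, 794 and 649 CPM in LOW (adjusted p = 0.174). Cxcl10, a chemokine induced by interferon, was not called and was highest in HIGH library 2 (1.65, 83.4 and 11.1 CPM in HIGH, 7.73, 20.5 and 45.3 CPM in LOW). Of the receptors, for example, Ccr1 (1.29 ± 0.32), Ccr2 (0.51 ± 0.17) and Cxcr4 (0.16 ± 0.28) did not pass. The list of chemokines and their receptors thus had 5 of 14 tested members higher and a median log2 change of 1.91.

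The promoters of Cxcl2 and Cxcl3 are shown because they are the members of the chemokine group with a listed promoter that holds the NF-kB motif. They are the 250 bases before the start (GRCm38.p6, plus strand, chr5:90903649-90903898 and chr5:90785851-90786100). Capitals mark the NF-kB match, which is the same 11 letters in both and counts as a pair of overlapping matches, and in Cxcl3 also the E-box CACGTG.
Cxcl2: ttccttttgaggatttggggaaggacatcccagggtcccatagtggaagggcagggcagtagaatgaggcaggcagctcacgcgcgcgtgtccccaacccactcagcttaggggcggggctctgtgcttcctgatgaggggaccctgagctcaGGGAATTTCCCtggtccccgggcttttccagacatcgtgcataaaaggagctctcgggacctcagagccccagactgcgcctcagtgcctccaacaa
Cxcl3: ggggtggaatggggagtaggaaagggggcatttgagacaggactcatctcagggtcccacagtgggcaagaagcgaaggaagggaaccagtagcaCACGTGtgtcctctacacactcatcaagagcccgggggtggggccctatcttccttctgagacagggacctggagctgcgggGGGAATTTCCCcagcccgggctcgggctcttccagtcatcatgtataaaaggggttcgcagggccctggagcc
The match starts 97 bases before the start of Cxcl2 and 73 before that of Cxcl3. Of the 53 promoters of genes higher in HIGH, 4 hold an NF-kB match (7.55%, the other two in Epx and Pdcd1lg2), against 419 of the 9981 tested (4.2%). AP-1 (TGANTCA) stood in 5 of the 53 (9.43%) against 4.51% of all, C/EBP (TTGCNNAA) in 7 (13.2%) against 7.69%, and the E-box in 5 (9.43%) against 8.6%. The promoter of Il1rn holds AP-1 and that of Mmp12 holds PU.1 and C/EBP. These matches describe the letters in a window of 250 bases and say nothing on binding.

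**Figure D2:**
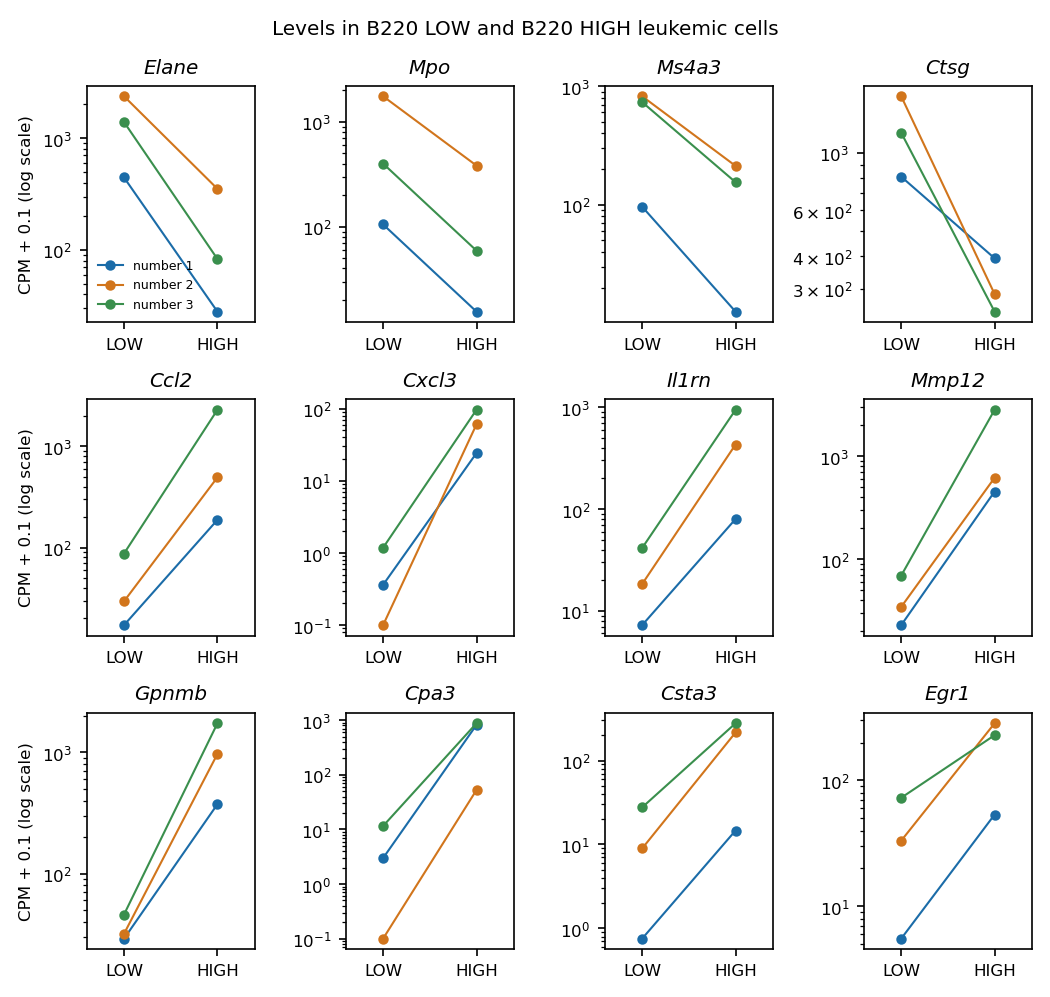
Each panel plots 1 gene, with CPM plus 0.1 on a log axis for B220 LOW (left) and B220 HIGH (right), and lines join the libraries of the same replicate number. In Elane, Mpo, Ms4a3 and Ctsg all 3 lines fall toward HIGH, and in Ccl2, Cxcl3, Il1rn, Mmp12, Gpnmb, Cpa3, Csta3 and Egr1 all 3 rise.

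Several genes of macrophages and 1 of the lysosome list were higher in B220 HIGH, while C1qa, a complement gene of resident macrophages, had 0 counts. Mmp12 (macrophage metalloelastase, chr9:7344397-7360461) was at 455, 619 and 2840.0 CPM in HIGH and 22.7, 34.1 and 69.0 CPM in LOW, a 25.4-fold difference (log2 change 4.67 ± 0.27 (SE), adjusted p = 0.000392). Gpnmb (a lysosomal and surface glycoprotein of macrophages, chr6:49036518-49058182) was at 373, 969.7 and 1735 CPM in HIGH and 28.9, 31.8 and 45.8 CPM in LOW, a 25.6-fold difference (log2 change 4.68 ± 0.34 (SE), adjusted p = 0.00283). For both genes every HIGH library was far above every LOW library and number 3 was the highest. Lpl (lipoprotein lipase) was at 90.5, 289 and 793 CPM in HIGH and 19.9, 23.1 and 65.1 CPM in LOW (log2 change 3.21 ± 0.32 (SE), adjusted p = 0.00534). Clec4n, the fungal receptor Dectin-2, was at 23.8, 146 and 295 CPM in HIGH and 2.10, 5.28 and 13.2 CPM in LOW (log2 change 4.35 ± 0.32 (SE), adjusted p = 0.000989). Ctsd, the lysosomal protease cathepsin D, was at 659, 1004 and 1531 CPM in HIGH and 316, 314 and 345 CPM in LOW (log2 change 1.68 ± 0.21 (SE), adjusted p = 0.0133). The LOW libraries of Ctsd lay close together, and each HIGH library lay above them. Fth1, the heavy chain of the iron store ferritin, had the highest level per length of the 79 called genes, with a mean of 3444 CPM per kb in HIGH and 1179 in LOW. It was at 1818, 5169 and 8625 CPM in HIGH and 1088, 1724 and 2532 CPM in LOW, with HIGH library 1 inside the LOW range (log2 change 1.41 ± 0.20 (SE), adjusted p = 0.0281).

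Adgre1, which encodes the macrophage antigen F4/80, was at 219.6, 180.2 and 188 CPM in HIGH and 78.0, 21.9 and 17.6 CPM in LOW (log2 change 2.70 ± 0.39 (SE), adjusted p = 0.0313). Cd14, a coreceptor for bacterial lipopolysaccharide, was at 15.9, 217 and 278 CPM in HIGH and 6.88, 22.6 and 33.5 CPM in LOW (log2 change 2.61 ± 0.42 (SE), adjusted p = 0.0482). Adgre1 was about level over the HIGH libraries, whereas Cd14 in HIGH library 1 lay below LOW libraries 2 and 3. Mpeg1, the pore former of macrophages, had a log2 change of 2.25 ± 0.28 (adjusted p = 0.0153), the lysosomal protease Lgmn of 3.51 ± 0.60 (0.0463), the actin-capping protein Capg of 1.61 ± 0.21 (0.0153) and the scavenger receptor Lrp1 of 3.56 ± 0.54 (0.0355). The surface proteins Cd84 (2.43 ± 0.31) and Cd180 (2.68 ± 0.46), the peptide carrier of the endosome Slc15a3 (4.50 ± 0.62) and the niacin receptor Hcar2 (4.75 ± 0.69) were higher as well. The secreted protease inhibitor Slpi had the smallest log2 change of the 73 (0.93 ± 0.13, adjusted p = 0.0163). Its level in number 3 was above the others in both sorts (662, 754 and 2881 CPM in HIGH, 361, 407 and 1564 CPM in LOW). Wfdc17, of a related family, had a log2 change of 3.40 ± 0.44 (adjusted p = 0.0313). Of these and the macrophage genes above, Mmp12 and Gpnmb passed without number 3. Adgre1 (adjusted p = 0.103) and Wfdc17 (0.0642) were also lost without number 2, Lgmn (0.0531) and Cd180 (0.0529) with RLE size factors, and Cd14 (0.0575) and Wfdc17 (0.101) with no filter on low counts.

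Of the 20 monocyte and macrophage genes tested 3 were higher (Gpnmb, Adgre1 and Cd14), 0 were lower, 19 had a positive log2 change, and the median was 1.96. Their summed level was 1392, 3284 and 4608 CPM in HIGH and 700.1, 545 and 785 CPM in LOW, and 1939, 2672 and 4077 CPM in unsorted marrow. The complement gene C1qa had 0 counts in all 6 sorted libraries, C1qb was at 3.85, 4.09 and 0.556 CPM in HIGH and 0 in LOW, and Spic was at or near 0. Csf1r, the receptor of the macrophage growth factor, was not called (22.6, 157 and 81.9 CPM in HIGH and 21.3, 43.8 and 98.3 CPM in LOW, adjusted p = 0.608), nor were Cd68 (1.60 ± 0.34), Lgals3 (2.40 ± 0.48), Ctss (4.02 ± 0.96) or Mertk (8.68 ± 2.11). Itgam, the integrin CD11b, was at 346, 1388 and 834 CPM in HIGH and 260.4, 153 and 207 CPM in LOW. The groups did not overlap, but the pairs were uneven and it did not pass (log2 change 1.93 ± 0.62 (SE), adjusted p = 0.362). Of the 18 lysosome genes 1 was higher (Ctsd) and 0 were lower, with a median log2 change of 0.67. For 10 of the 18 every HIGH library lay above every LOW library, where 6.2% of all genes do. Ctsb (1.66 ± 0.39), Ctsl (2.18 ± 0.59), Psap (1.45 ± 0.36) and Atp6v0d2 (6.35 ± 1.15) did not pass. In bulk libraries a change in the share of a cell type and a change of RNA within cells cannot be told apart.

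**Figure D3:**
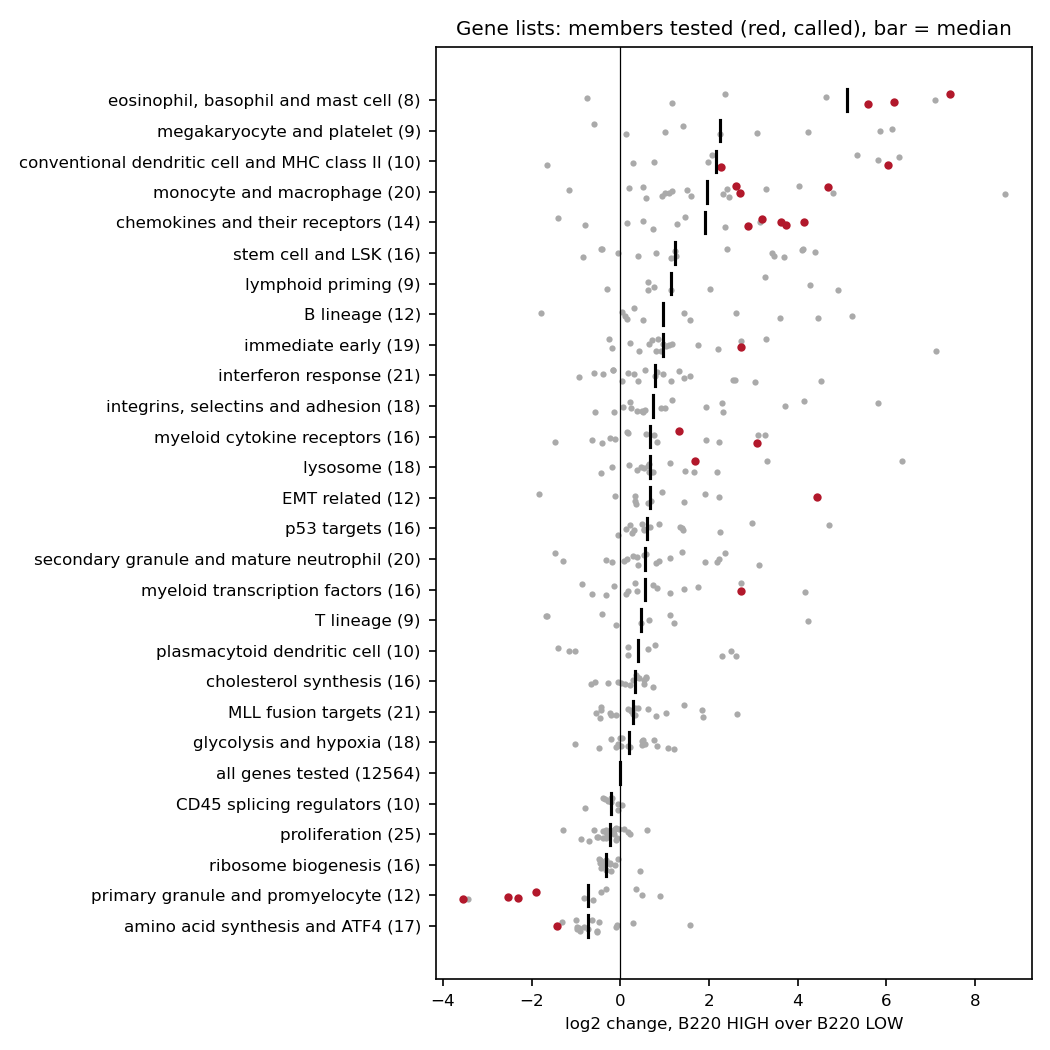
Each row is a gene list with the number of its members tested in brackets. Points are members by their log2 change, B220 HIGH over B220 LOW (red, called), and bars are medians, with the bar alone for all genes tested. The eosinophil, basophil and mast cell list has the highest median (5.12) and the amino acid list the lowest (-0.74).

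Cpa3, Prg2, Epx and Cd200r3, genes of mast cells, basophils and eosinophils, were higher in B220 HIGH and had their highest levels in HIGH libraries 1 and 3. Cpa3 (mast cell carboxypeptidase, chr3:20215616-20242209) was at 819, 52.5 and 876 CPM in HIGH and 2.88, 0 and 11.4 CPM in LOW (log2 change 7.43 ± 0.64 (SE), adjusted p = 0.0178). HIGH libraries 1 and 3 were alike and library 2 was far lower, yet still above every LOW library. Cpa3 overlaps 3 other annotated genes. Prg2 (eosinophil major basic protein, chr2:84980461-84983632) was at 83.4, 5.68 and 53.6 CPM in HIGH and 2.55, 0 and 0.421 CPM in LOW (log2 change 6.17 ± 0.69 (SE), adjusted p = 0.00622). Epx, the eosinophil peroxidase, was at 28.6, 3.14 and 32.3 CPM in HIGH and 0.786, 0 and 0.782 CPM in LOW (log2 change 5.60 ± 0.79 (SE), adjusted p = 0.0198). Both were lowest in HIGH library 2 among the HIGH libraries, as was Cpa3. Cd200r3, an activating receptor of mast cells and basophils, was at 57.2, 1.64 and 74.2 CPM in HIGH and 1.18, 0 and 1.62 CPM in LOW (log2 change 5.68 ± 0.56 (SE), adjusted p = 0.00362). Its relative Cd200r4 was at 55.7, 19.6 and 152 CPM in HIGH and 6.02, 1.19 and 30.2 CPM in LOW (log2 change 3.17 ± 0.40 (SE), adjusted p = 0.0121), and reads of the related Cd200r genes may be shared between them. Cyp11a1, which makes pregnenolone from cholesterol, was at 74.5, 2.94 and 12.9 CPM in HIGH and 3.08, 0.149 and 0.12 CPM in LOW (log2 change 5.14 ± 0.72 (SE), adjusted p = 0.0184), and it was lost without number 1 (adjusted p = 0.119). Alox5, the enzyme that starts leukotriene synthesis, had a log2 change of 2.01 ± 0.20 (adjusted p = 0.00362) with its highest level in HIGH library 2.

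Of the 8 members of the eosinophil, basophil and mast cell list that were tested 3 were higher and 0 were lower, of 14 in the table, with a median log2 change of 5.12. The list's summed level was 1629, 155 and 1699 CPM in HIGH and 52.4, 56.7 and 137 CPM in LOW. Fcer1a and Tpsb2 had 0 counts in all 6 libraries. Ccr3 and Il5ra, receptors of eosinophils, did not exceed 1.05 CPM, Prss34 did not exceed 0.0498 CPM, and Mcpt8, the basophil protease, had a negative log2 change (-0.75 ± 0.89, adjusted p = 0.788). Hdc, which makes histamine, was at 252, 53.2 and 306 CPM in HIGH and 4.98, 11.8 and 5.77 CPM in LOW without a call (log2 change 4.65 ± 0.99 (SE), adjusted p = 0.214). Gata2, a transcription factor of mast cells and stem cells, was at 334, 29.3 and 389 CPM in HIGH and 25.7, 17.9 and 72.3 CPM in LOW (log2 change 2.35 ± 0.62 (SE), adjusted p = 0.264). Without number 2, its pair with the smallest difference, Gata2 passed (adjusted p = 5.06e-06). That run has 2 pairs and 1 residual degree of freedom. Its smallest adjusted p was 1.41e-13, against 0.000392 with all libraries, so its values do not compare with those of the main run. The same limit applies wherever a gene passed with a number left out. Without number 3 Cpa3 passed (adjusted p = 0.0199), and Prg2 (0.219), Epx (0.465) and Cd200r3 (0.258) did not. With no filter on low counts Cpa3 did not pass (0.165).

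Receptors and signalling proteins of myeloid cells form another group of the 73. Csf2rb, the shared signalling chain of the receptors for GM-CSF, interleukin 3 and interleukin 5 (chr15:78325800-78351001), was at 977, 907 and 951 CPM in HIGH and 475, 339 and 371 CPM in LOW (log2 change 1.32 ± 0.15 (SE), adjusted p = 0.00642). Csf2rb2, the interleukin 3 chain beside it (chr15:78282507-78305721), was at 246, 220.1 and 200.3 CPM in HIGH and 45.9, 23.7 and 18.0 CPM in LOW (log2 change 3.08 ± 0.26 (SE), adjusted p = 0.00234). The HIGH libraries of each gene lay within a narrow band above all LOW libraries. The pair are near-identical copies, so the split of reads between them is uncertain. The ligand-binding chains Csf2ra (0.15 ± 0.26) and Il3ra (-0.24 ± 1.65) were not called, and 2 of the 16 myeloid cytokine receptors tested were higher and 0 lower, with a median log2 change of 0.67. Csf3r, the receptor of G-CSF, had a negative log2 change without a call (-1.48 ± 0.47, adjusted p = 0.27).

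Cd274, which encodes the T cell inhibitor PD-L1, was at 155, 228 and 373 CPM in HIGH and 43.2, 17.4 and 53.3 CPM in LOW (log2 change 2.83 ± 0.35 (SE), adjusted p = 0.0153). Pdcd1lg2, which encodes PD-L2, was at 13.3, 12.2 and 6.78 CPM in HIGH and 0, 0.0744 and 0.0601 CPM in LOW (adjusted p = 0.0344). Its LOW libraries held 2 counts in all, and the ratio of the pooled levels was 234 (95% counting interval 64.5 to 1937). Nt5e, the adenosine-forming enzyme CD73, was at 565, 517 and 937 CPM in HIGH and 165, 266 and 376 CPM in LOW (log2 change 1.40 ± 0.18 (SE), adjusted p = 0.0149). Cd274, Pdcd1lg2 and Nt5e had no overlap between the sorts. Tarm1, an activating receptor of myeloid cells, had a log2 change of 5.46 ± 0.72 (adjusted p = 0.0153), the adaptor Fyb of 3.36 ± 0.47 (0.021), the kinase Tec of 1.98 ± 0.31 (0.0344), the tetraspanin Cd53 of 1.06 ± 0.17 (0.0334) and the lipoprotein receptor Apobr of 1.95 ± 0.28 (0.0225). Scimp, an adaptor at sites of antigen presentation, had 1 count over the LOW libraries against 486 over the HIGH libraries, a ratio of 434 (95% counting interval 77.5 to 17179). None of the genes of this and the foregoing paragraph passed without number 3, where their adjusted p ran from 0.0845 to 0.740 over the 11 called.

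Genes of adhesion proteins were higher as well. Cdh1 (E-cadherin) was at 43.1, 169 and 34.1 CPM in HIGH and 7.20, 5.58 and 0.541 CPM in LOW (log2 change 4.43 ± 0.67 (SE), adjusted p = 0.0396). Cdh17, another cadherin, was at 67.8, 25.3 and 50.9 CPM in HIGH and 1.51, 0.744 and 2.95 CPM in LOW (log2 change 4.91 ± 0.49 (SE), adjusted p = 0.00363). Both cadherins were without overlap, and they had different libraries on top. Alcam (2.97 ± 0.30, adjusted p = 0.00362), the podoplanin gene Pdpn (5.24 ± 0.62, 0.0137), the collagen receptor chain Itga1 (1.59 ± 0.27, 0.0446) and the laminin chain Lama5 (3.09 ± 0.52, 0.0442) were the others. Of these 6 genes 3 were lost without number 1 (Itga1, Lama5 and Pdpn) and all 6 without number 3. Of the 12 tested genes related to the epithelial-mesenchymal transition 1 was higher (Cdh1) and 0 were lower, and of the 18 integrins, selectins and adhesion genes edgeR called 0, with 8 at an unadjusted p under 0.05, as 12.3% of all genes tested were. DESeq2 called 6 of these 18 (Itgax, Itgb2, Itgb3, Itgb7, Cd33 and Cd200r1), against 5.67% of all genes, and limma-voom 3, against 2.28%. Counts of other lists by these rules read against the same shares.

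Among protease inhibitors, Serpinb2, the inhibitor PAI-2 of plasminogen activators (chr1:107500892-107525600), was at 70.7, 45.5 and 59.5 CPM in HIGH and 0.589, 0 and 0.18 CPM in LOW (log2 change 8.04 ± 0.72 (SE), adjusted p = 0.00235). Serpinb10 beside it (chr1:107528994-107560742) was at 23.3, 82.0 and 27.2 CPM in HIGH and 0.458, 4.46 and 0.601 CPM in LOW (log2 change 5.08 ± 0.53 (SE), adjusted p = 0.00445). Serpinb2 was close to absent from LOW, while Serpinb10 reached 4.46 CPM in LOW library 2. Of the 6 Serpinb genes tested 2 were higher and 0 lower, and Serpinb6a, Serpinb8, Serpinb9 and Serpinb1a were not called. Csta3, a stefin that inhibits cysteine proteases, was at 14.6, 216 and 278 CPM in HIGH and 0.655, 8.85 and 27.5 CPM in LOW, low in number 1 of both sorts (log2 change 4.12 ± 0.32 (SE), adjusted p = 0.00132). It belongs to a family of close copies, so its reads are uncertain.

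Of the transcription factors, Egr1, an early response factor that also acts in monocytes, was at 53.5, 285 and 229 CPM in HIGH and 5.43, 33.1 and 72.7 CPM in LOW (log2 change 2.72 ± 0.33 (SE), adjusted p = 0.0108). It was higher within each number, and HIGH library 1 lay below LOW library 3. Id2, which blocks E proteins such as the B cell factor E2A, was at 88.6, 125 and 120.5 CPM in HIGH and 32.7, 16.7 and 24.2 CPM in LOW (log2 change 2.26 ± 0.33 (SE), adjusted p = 0.0228). Bhlhe41, a repressor, was at 3.02, 18.6 and 116 CPM in HIGH and 0.262, 0.67 and 4.51 CPM in LOW (log2 change 4.49 ± 0.49 (SE), adjusted p = 0.00534). Of 19 immediate early genes 1 was higher (Egr1) and 0 were lower, with a median log2 change of 0.96. Fos (0.81 ± 0.30), Jun (0.85 ± 0.59), Klf6 (1.74 ± 0.32) and Egr3 (7.12 ± 1.40) were not called. The unsorted marrow held more of the immediate early list (2405, 2574 and 5742 CPM summed) than any sorted library (375 to 1352 CPM). Sorting and sequencing table cannot be told apart in that difference. Of 16 myeloid transcription factors 1 was higher, again Egr1. Cebpa (-0.32 ± 0.49, adjusted p = 0.849) and Irf8 (1.12 ± 0.86, 0.649) were not called, and without number 2 the sign turned positive for Cebpa and negative for Irf8.

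Genes of the B lineage were not called in the sort for a B cell antigen. Pax5, the factor that fixes B cell identity, was at 0, 0.0997 and 0.202 CPM in HIGH and at 0 in LOW. Ebf1, which acts before Pax5, was at 0, 14.1 and 2.78 CPM in HIGH and 0, 0.223 and 0 CPM in LOW, a ratio of 101 over 3 counts in LOW (95% counting interval 34.1 to 490). Cd79a, a chain of the B cell receptor, was at 0.0916, 4.78 and 0.101 CPM in HIGH and 0.72, 0 and 0 CPM in LOW, Igll1, of the surrogate light chain, at 0.183, 34.7 and 1.26 and 0 in LOW, and Blnk, its adaptor, at 0, 23.6 and 3.19 and 0 in LOW. These B lineage genes had enough counts in too few libraries to be tested, and Ebf1, Cd79a, Igll1 and Blnk were highest in HIGH library 2. Rag1 was at 0, 0.448 and 0 CPM in HIGH and 0 in LOW, and Dntt at 2.11, 5.23 and 0 CPM and 0.0655, 0 and 0 CPM. Of 23 B lineage genes 12 were tested and 0 were called in either direction by edgeR. The median log2 change was 0.96, with pair medians of 0.42, 2.37 and 0.80. Of the 12, 11 had a positive log2 change, against 48.8% of all genes tested. Counts of positive changes in other lists read against the same share. For 2 of the 12 every HIGH library lay above every LOW library, where 6.2% of all genes do. At an unadjusted p under 0.05 there were 4 of the 12, where 1549 of the 12564 genes tested were. DESeq2 called 4, namely Pou2af1, Cd22, Cd24a and Bst1, and limma-voom 2. Their summed level was 185, 1108 and 437 CPM in HIGH, 151, 222 and 142 CPM in LOW and 113, 322 and 198 CPM in unsorted marrow. Of the HIGH sum in library 2, 737 CPM came from Cd24a, which many immature cells also carry.

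Of the genes of plasmacytoid dendritic cells, the other carriers of B220, those tested were not called. Siglech and Ly6d had enough counts in too few libraries to be tested. Siglech, Ly6d and Ccr9 were highest in HIGH library 2. Siglech, their surface lectin, was at 0.458, 66.7 and 2.02 CPM in HIGH and 0, 0 and 0.0601 CPM in LOW, and Ly6d at 0.0916, 58.8 and 0.0506 CPM in HIGH and 0 in LOW. Ccr9 was at 0, 42.7 and 0.253 CPM in HIGH and 5.17, 8.48 and 0.842 CPM in LOW. Not all members of the list shared that order. Tlr7 (11.8, 125 and 159 CPM in HIGH, 9.89, 10.5 and 24.7 CPM in LOW) and Tcf4 were highest in HIGH library 3. Ly6c2 was lower in HIGH within each number (32.2, 212 and 55.1 CPM in HIGH, 106, 291 and 115 CPM in LOW), without a call (log2 change -1.02 ± 0.26 (SE), adjusted p = 0.157). Cox6a2 (-1.16 ± 1.20) and Ccr9 (-1.40 ± 1.93) also had negative log2 changes. The summed level of the list was 793, 1446 and 1097 CPM in HIGH and 825, 992 and 917 CPM in LOW, so that the groups overlapped. Of 10 list members tested 0 were called, and Tcf4 (0.62 ± 0.25), Runx2 (0.16 ± 0.14) and Bst2 (0.18 ± 0.30), which both sorts expressed, were not either. At an unadjusted p under 0.05 there were 3 of the 10, and DESeq2 called 2 (Tlr7 and Ly6c2) and limma-voom 1.

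Of the MHC class II genes, which serve antigen presentation on B cells, dendritic cells and macrophages, H2-Eb1 was higher in HIGH. H2-Eb1 was at 12.8, 247 and 5.56 CPM in HIGH and 0.72, 1.12 and 0.12 CPM in LOW and was called (log2 change 6.05 ± 0.77 (SE), adjusted p = 0.0182). Cd74, the invariant chain, was at 117, 1783 and 123 CPM in HIGH and 15.5, 9.60 and 2.89 CPM in LOW without a call (log2 change 5.34 ± 1.40 (SE), adjusted p = 0.368), and H2-Aa was at 49.5, 925 and 42.9 CPM and 2.16, 1.34 and 1.32 CPM (log2 change 6.28 ± 1.45 (SE), adjusted p = 0.311). For H2-Eb1, Cd74 and H2-Aa every HIGH library lay above every LOW library, and HIGH library 2 was far above the other HIGH libraries. Ciita, the transactivator of these genes, was at 0.183, 67.5 and 1.62 CPM in HIGH and 0, 0.149 and 0.0601 CPM in LOW and was not tested. Bcl11a, a factor needed for B cells and plasmacytoid dendritic cells, was at 4.67, 144 and 1.26 CPM in HIGH and 0, 0.521 and 0.0601 CPM in LOW (log2 change 7.63 ± 0.81 (SE), adjusted p = 0.00493). Without number 2 neither H2-Eb1 (adjusted p = 0.13) nor Bcl11a (0.411) passed, while Cd74 did (0.0257). Of the 10 tested genes on the list of conventional dendritic cells and MHC class II 2 were higher (H2-Eb1 and Id2) and 0 were lower. The list's summed level was 459, 4166 and 407 CPM in HIGH and 144, 123 and 107 CPM in LOW.

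Il7r, the interleukin 7 receptor of lymphoid progenitors, was at 29.1, 128 and 225 CPM in HIGH and 3.08, 0.893 and 8.90 CPM in LOW. Every HIGH library was above every LOW library, but it missed the threshold (log2 change 4.90 ± 0.77 (SE), adjusted p = 0.082). It passed without number 1 (adjusted p = 0.0192) or without number 2 (1.29e-06), in DESeq2 and in limma-voom. The runs without a number rest on 2 pairs and 1 residual degree of freedom. Flt3, the receptor of early lymphoid progenitors, was at 3.57, 15.4 and 0.607 CPM in HIGH and 5.70, 0 and 0.0601 CPM in LOW, without a common direction over the pairs. Of 9 tested lymphoid priming genes 0 were called and 8 had a positive log2 change, with Ikzf1 at 0.63 ± 0.14 and Il2rg at 0.75 ± 0.25. Of the 9, 6 had an unadjusted p under 0.05, DESeq2 called 3 (Il7r, Satb1 and Ikzf1) and limma-voom 2. The T cell gene Cd3e was at 0.0916, 11.8 and 0 CPM in HIGH and 0, 0.0744 and 0 CPM in LOW. Of 9 tested T lineage genes 0 were called by edgeR (1 at an unadjusted p under 0.05) or limma-voom and 1 by DESeq2 (Gata3), and the NK cell list had 1 gene tested, Nkg7, which was not called. Klrd1, an NK cell receptor chain, was at 0, 45.2 and 0.607 CPM in HIGH and 0 in LOW. The parts of these lymphoid and dendritic cell markers in the other results of library 2 were not tested.

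**Figure D4:**
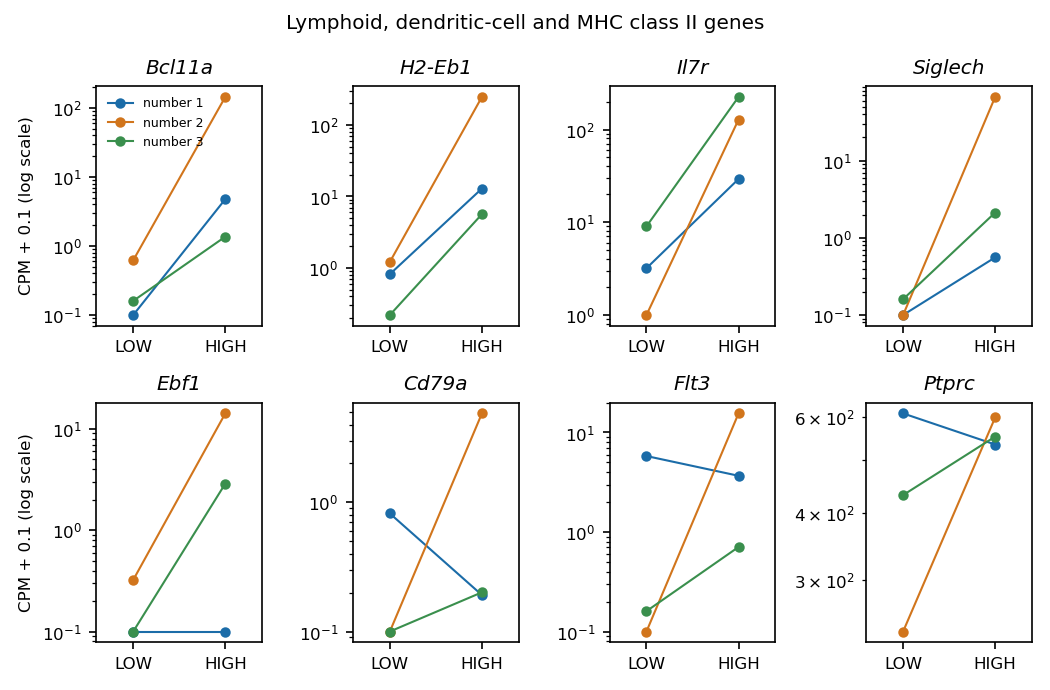
Each panel plots 1 gene, with CPM plus 0.1 on a log axis for B220 LOW (left) and B220 HIGH (right), and lines join the libraries of the same replicate number. HIGH library 2 (orange) is the top HIGH point for each gene but Il7r, whose highest value is in library 3.

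Mature neutrophil genes were not called and had no common direction over the pairs. The summed level of the secondary granule and mature neutrophil list was 299.7, 18756 and 6151 CPM in HIGH and 1112, 2544 and 4774 CPM in LOW. HIGH was the lower in number 1 and the higher in number 2, with pair medians of -2.82, 3.31 and 0.64. S100a9, an abundant calcium-binding protein of neutrophils, was at 31.5, 7656 and 1674 CPM in HIGH and 363, 787 and 1436 CPM in LOW, and Ngp at 7.78, 1337 and 114 CPM and 52.97, 86.7 and 113 CPM. Of 20 tested members edgeR called 0, with 2 at an unadjusted p under 0.05, DESeq2 1 (Mmp8) and limma-voom 2. Elane, Mpo, Ctsg and Ms4a3 of the primary granule list were lower in HIGH within every number, in number 2 as well, where the summed level of mature neutrophil genes was the higher in HIGH.

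Targets of MLL fusions were not called. Hoxa9 was at 106, 143 and 89.4 CPM in HIGH and 176, 237 and 56.5 CPM in LOW (log2 change -0.23 ± 0.30 (SE), adjusted p = 0.816), and its sign turned positive without number 1 or without number 2. Meis1, its partner, was at 254, 134 and 129 CPM in HIGH and 199.5, 154 and 92.9 CPM in LOW (log2 change 0.25 ± 0.20 (SE), adjusted p = 0.656). The ranges of both overlapped. Of 21 tested targets edgeR called 0, with 6 at an unadjusted p under 0.05, 14 had a positive log2 change, and the median was 0.29. DESeq2 called 3 (Bcl2, Cpeb2 and Igf2bp2) and limma-voom 2. Bcl2, which blocks cell death, came closest, at 98.0, 55.9 and 63.6 CPM in HIGH and 15.4, 27.4 and 18.6 CPM in LOW (log2 change 1.87 ± 0.38 (SE), adjusted p = 0.0829). Igf2bp2 (1.84 ± 0.50), Cpeb2 (1.02 ± 0.24) and Cdk6 (-0.09 ± 0.16) were not called by edgeR. Eya1, a transcriptional cofactor, was at 149, 4.88 and 52.9 CPM in HIGH and 210.1, 0.372 and 86.0 CPM in LOW, with number 1 high and number 2 near 0 in both sorts.

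Stem cell genes were not called. Kit was at 41.8, 40.3 and 7.28 CPM in HIGH and 53.3, 61.8 and 9.56 CPM in LOW (log2 change -0.41 ± 0.32 (SE), adjusted p = 0.655), and Cd34 at 136, 34.6 and 289 CPM and 49.2, 28.1 and 80.4 CPM (log2 change 1.26 ± 0.31 (SE), adjusted p = 0.154). Cd34 was higher in HIGH within each number and passed without number 2 (adjusted p = 0.000149), a run with 2 pairs and 1 residual degree of freedom. Of 16 tested genes of the stem cell and LSK list 0 were called, with a median log2 change of 1.24. Hlf, a stem cell factor with the highest log2 change of the list, was at 7.78, 3.19 and 3.29 CPM in HIGH and 0.262, 0.893 and 0 CPM in LOW (log2 change 4.40 ± 1.62 (SE), adjusted p = 0.328). Of the 16, 5 had an unadjusted p under 0.05, DESeq2 called 3 (Hlf, Cd34 and Ly6a) and limma-voom 2. Ly6a, which encodes Sca-1, was at 10.5, 285 and 6.88 CPM in HIGH and 0.72, 1.56 and 3.25 CPM in LOW, again with library 2 on top.

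Genes of proliferation and of ribosome biogenesis were not called and had mostly negative log2 changes. Of 25 proliferation genes 0 were called, 4 had a positive log2 change, and the median was -0.24. Mki67 was at 2721, 1932 and 1695 CPM in HIGH and 2514, 2100.0 and 2459 CPM in LOW (log2 change -0.14 ± 0.14 (SE), adjusted p = 0.761), and Myc at 437, 428 and 277 CPM in HIGH and 479, 622 and 500.1 CPM in LOW (log2 change -0.46 ± 0.17 (SE), adjusted p = 0.325). Every HIGH library lay below every LOW library for Myc and for 8 of the 25 proliferation genes, where 7.22% of all genes do. Of the 25, 6 had an unadjusted p under 0.05, DESeq2 called 3 (Ccnb2, Mcm2 and E2f1) and limma-voom 1. Of 16 ribosome biogenesis genes 0 were called, 1 had a positive log2 change, and the median was -0.33. DESeq2 called 0 of them and limma-voom 1, and 3 had an unadjusted p under 0.05 in edgeR. The regulators of CD45 splicing had 0 calls among 10 in edgeR, DESeq2 and limma-voom, with 3 at an unadjusted p under 0.05 in edgeR and 1 positive log2 change. Hnrnpll, which promotes the skipping of the exons that make B220, was at 65.4, 164 and 79.2 CPM in HIGH and 156, 191 and 168 CPM in LOW (log2 change -0.81 ± 0.24 (SE), adjusted p = 0.225). It was lower in HIGH within each number, while HIGH library 2 lay inside the LOW range, and it passed without number 2 (adjusted p = 0.0304).

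Lists of interferon response (21 tested, median log2 change 0.78), p53 targets (16, 0.61), glycolysis and hypoxia (18, 0.19), cholesterol synthesis (16, 0.32), megakaryocytes and platelets (9, 2.25), erythroid cells (3, 0.12) and marrow stroma and endothelium (3, 0.80) had 0 calls each in edgeR. At an unadjusted p under 0.05 they held 2, 4, 1, 1, 3, 0 and 2 genes. DESeq2 called Xaf1 of the interferon list, Cdkn1a, Mdm2, Trp53inp1 and Perp of the p53 targets, Vegfa of glycolysis and hypoxia, Pf4, Itga2b and Ppbp of the platelet list and Pecam1 of the stroma list, and limma-voom 2 p53 targets and 1 platelet gene. DESeq2 and limma-voom called more genes overall (712 and 287), all 79 among them. The summed levels of the erythroid list overlapped between the sorts (261 to 554 CPM in HIGH and 283 to 453 CPM in LOW). Those of the marrow stroma list were 89.7 to 173 CPM in HIGH and 63.5 to 87.1 CPM in LOW.

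The remaining genes higher in HIGH include Gcnt1, a branching enzyme of O-glycans (2.27 ± 0.20, adjusted p = 0.00235), Anxa1, the phospholipid-binding annexin A1 (2.54 ± 0.28, 0.00534), the small GTPase Arl4c (2.56 ± 0.34, 0.0156), Ifitm1 (1.94 ± 0.24, 0.0107) and Mir22hg, the host gene of a microRNA (2.69 ± 0.40, 0.0235). The sodium-proton exchanger Slc9a4 was at 6.96, 15.3 and 26.0 CPM in HIGH and 0, 0 and 0.421 CPM in LOW (log2 change 7.41 ± 1.13 (SE), adjusted p = 0.0281), and the solute carrier Slc45a3 at 25.0, 8.07 and 15.6 CPM and 0.72, 0 and 0.0601 CPM (log2 change 6.70 ± 1.07 (SE), adjusted p = 0.0347). Both were close to absent from LOW. Myo1d, Ngly1, Sgpl1, Tpd52, Tespa1, Slc7a8, Lhfpl2 and F630111L10Rik complete the 73, with log2 changes from 1.23 (Lhfpl2) to 5.79 (F630111L10Rik). None of these 15 passed without number 3 (adjusted p from 0.121 to 0.606), and Lhfpl2, Ngly1 and Tespa1 were lost without number 1.

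In unsorted leukemic marrow, the mean level fell between the HIGH and LOW means for 41 of the 73 higher genes and for 3 of the 6 lower ones. Over all genes tested it did so for 20.5%. For 39 of the 73 (53.4%) every unsorted library lay below every HIGH library, against 17.9% of all genes tested. The 73 were chosen for their high HIGH levels, which by itself raises such shares, so they are a description. Mmp12, at 2.83, 0.0556 and 0.837 CPM in unsorted marrow, Ccl7 (0.741, 0.333 and 0.749 CPM), Nt5e (22.4, 89.8 and 124 CPM) and Fth1 (214, 430.0 and 297 CPM) were below all 6 sorted libraries. These 4 and Slpi, Ctsd, Cyp11a1 and Ifitm1 are the 8 of 73 with that pattern (11%), near the share over all genes tested (11.9%). For 7 genes (9.59%), among them Egr1, Lrp1 and Mpeg1, the unsorted mean was above the HIGH mean, against 47.1% of all genes tested. The choice of the 73 by itself lowers that share. The unsorted libraries come from the other table and no test crossed the tables.

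The libraries also differed by replicate number. Between the 3 numbers 273 genes differed (2.17% of the genes tested) at an adjusted p under 0.05, and 32 of them were also called between the sorts. Without number 1 the calls between numbers were 10 and those between sorts 292, and without number 3 they were 6 and 10. Of the summed squares of log2 levels, 48.4% went with the number, 26.1% with the sort and 25.6% with neither. The number has 2 degrees of freedom and the sort 1, so that per degree of freedom the shares were 24.2%, 26.1% and 12.8%. Number 1 stood apart from the others in 191 of the 273 genes, which was not counted over all genes tested. The labels do not say what the numbers mark.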

How the data were processed

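RNA of the sorted cells was isolated with a Pico Pure kit and made into libraries with an unstranded NuGen Ovation kit, per the labels' protocols. The authors deposited raw counts per NCBI gene ID in 1 table for the sorted libraries and in another for unsorted marrow and LSK cells, each with a column of gene widths (other unit). For their own steps the submitters' processing notes list GRCm38, mm10 and edgeR. Which aligner and counter made the counts is not given in the sources used here. Counts without strand cannot tell overlapping genes apart. Symbols were found for 23968 of 24028 IDs, and 4 list genes were not found in the table.

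Counts were tested with edgeR 4.0.16 (R 4.3.3): TMM factors, a filter on low counts (filterByExpr, minimum count 10), a model with replicate number and sort, the robust quasi-likelihood F test, two-sided, and Benjamini-Hochberg adjustment over 12564 genes, with calls at an adjusted p under 0.05. Every adjusted p in the text is from this test unless another tool is named. Changes are log2, HIGH over LOW, with SE. This SE was derived from the test, as the size of the change divided by the square root of its F statistic. Deviations from the group means correlated between libraries of the same number (r = 0.397, 0.198 and 0.307 over 12564 genes) and from -0.29 to 0.0307 between other numbers. The number was kept as a pairing term. A gene's deviations cancel out within a sort, so positive values within numbers by themselves bring lower ones between numbers. The same libraries served for this check and for the test. The labels do not say that a number is a mouse, so p-values reflect only how far these samples vary, which may be technical. Alternatives were no replicate block, RLE size factors, DESeq2 1.42.0, limma-voom (limma 3.58.1), no filter, and leaving out each number. The fit was tested on simulated data, where the share of false calls exceeded the threshold of 0.05.

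Levels are CPM of the library total, and ratios over groups with at most 3 counts carry exact 95% intervals that cover counting error only. Promoters are RefSeq sequences of GRCm38.p6 (59 of 79 called genes matched by gene ID). The comparison and the 30 gene lists were chosen with earlier results of these data known. The genes named by rule are Ptprc, Kmt2a and Mllt1, the 8 largest changes called in each direction at an average log2 CPM of at least 3 with all pairs alike, up to 3 called members per list by p, and a fixed set of lineage and leukemia genes, of which 1 is not reported here. Other named genes, and the groups in which called genes are described, were chosen after their values were seen.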

Additional observations from a re-analysis of the deposited data

How the results depend on the processing

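The 79 called genes kept their direction under each alternative run. Those runs use the libraries that chose the genes, which by itself favors a kept direction. Their number did not hold: without the replicate block 0 genes were called (0 higher, 0 lower), with adjusted p of the 79 from 0.0649 to 0.893. RLE size factors gave 75 calls between sorts and 187 between numbers, and lost Asns, Cd180, Lgmn and Sgip1. DESeq2 called 712 (598 higher, 114 lower) and 1501 between numbers, limma-voom 287 (253 higher, 34 lower) and 746, both with all 79 among them. No filter on low counts, over 18431 genes, gave 198 (181 higher, 17 lower) and 763 between numbers, and lost Ccl3, Ccl7, Cd14, Cpa3, Ctsg and Wfdc17. Leaving out 1 number gave 10 to 292 calls, 10 to 270 higher, 0 to 31 lower and 6 to 1306 between numbers. The fewest between sorts came without number 3, when 70 of the 79 were lost. Number 1 was needed by 7 (Cyp11a1, Itga1, Lama5, Lhfpl2, Ngly1, Pdpn and Tespa1) and number 2 by 5 (Adgre1, Bcl11a, Ccl7, H2-Eb1 and Wfdc17). Leaving out a number leaves 2 pairs and 1 residual degree of freedom, and otherwise the cause was not tested.

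Of the genes that turned sign, none was called with all libraries. Without the replicate block Epha7 was at log2 0.338 and Eya1 at -0.490, and in limma-voom they were at 0.296 and -0.461. With 1 number left out at a time, the log2 change ran from -0.242 to 0.433 for Mllt1, from -0.374 to 0.133 for Epha7, from -0.552 to 1.05 for Eya1, from -0.682 to 0.00446 for Cebpa, from -0.0425 to 1.04 for Csf1r, from -0.661 to 0.0304 for Hoxa9, from -0.0117 to 1.99 for Irf8 and from -0.265 to 0.0583 for Mki67. Of the list medians, 6 moved by more than their spread, each when 1 number was left out. That of the lymphoid priming list was 1.99 and that of the p53 targets 1.13 without number 1. That of the T lineage list was -0.45 without number 1 and -0.32 without number 2. That of the marrow stroma and endothelium list was -0.99 without number 3, and that of the primary granule and promyelocyte list -1.22 without number 2. The 3 libraries per sort limit what could be called. Genes of the B lineage and of plasmacytoid dendritic cells with enough counts in too few libraries could not be tested.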

Other observations

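Several genes with large differences between the replicate numbers were not called between the sorts. Epha7, an ephrin receptor, was at 392, 4.73 and 2.33 CPM in B220 HIGH, 311, 7.14 and 2.83 CPM in B220 LOW and 461, 5.28 and 0.132 CPM in unsorted leukemic marrow, so number 1 was high in each kind of library. Vldlr, a lipoprotein receptor, was at 92.2, 0.448 and 0 CPM in HIGH, 126, 2.53 and 0 CPM in LOW and 3.61, 0 and 0 CPM in unsorted marrow. Pbx3, a partner of Hoxa9, was low in number 2 instead, at 318, 57.5 and 308 CPM in HIGH, 261, 44.6 and 232 CPM in LOW and 188, 33.3 and 111 CPM in unsorted marrow. In 166 of the 273 genes called between numbers (60.8%) the number with the highest mean over HIGH and LOW was also the highest among the unsorted libraries, against 43.2% of all genes tested. The unsorted libraries took no part in choosing these genes, and the labels do not say that a number means the same in both tables.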
